A study of Caenorhabditis elegans with 15 samples.

Results

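ATG-2 is a bridge-like protein that moves lipid to the growing autophagosome membrane, and ATG-18, a phosphoinositide-binding partner of the WIPI family, holds it there. Autophagy encloses cell material in such membranes and delivers it to the lysosome. HLH-30, the C. elegans counterpart of TFEB, drives many autophagy and lysosome genes and is needed for the long life of glp-1 worms, which lack a germline. The comparison described here asks what neuronal RNAi of atg-2 does to RNA levels in whole glp-1 worms. It covers every gene with a mean of at least 1 RPKM (reads scaled by gene length and by library depth) over the 6 libraries concerned, which is 12548 of the 42048 genes in the deposited table. At the edge of this rule, F21H7.2 lay just inside with a mean of 1.0001 RPKM and R02D5.10 just outside, under 1 RPKM.

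Whole worms of strain SHU47, genotype glp-1, were fed atg-2 RNAi bacteria (3 libraries) or luc RNAi bacteria, the control of the series (3 libraries). The same strain on atg-18 RNAi (3 libraries) or hlh-30 RNAi (3 libraries) and strain TU3401 on luc RNAi (3 libraries) complete the 15 libraries. All worms were on adult day 1 after growth at 20 °C, and RNAi was by feeding HT115(DE3) bacteria with the L4440 vector. TU3401 is known as a strain in which RNAi acts mainly in neurons, because sid-1, the channel for double-stranded RNA, is mutant in the body and put back under a neuronal promoter. The labels call the RNAi in SHU47 neuronal, but they do not say how many cultures or animals stand behind a library, so a p-value here reflects how much libraries vary, which may be technical. Log2 differences are on the log2(RPKM + 1) scale, which understates those of genes at low levels.

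Depth recovered from the RPKM steps was 22586020 to 23865855 reads in the atg-2 RNAi libraries and 18754390 to 23322670 reads in the luc libraries. Summed RPKM of the 32 pan-neuronal genes was 1318 to 1480 with atg-2 RNAi and 1353 to 1530 with luc, and all 32 were detected. The germline label was checked on 48 germline genes that had at least 10 RPKM in TU3401. Their median level was 2.63%, 0.143% and 0.122% of TU3401 in atg-2 RNAi libraries 1, 2 and 3, and 1.01%, 0.15% and 0.134% in the luc libraries of the same numbers. Both libraries numbered 1 thus held more germline RNA than the others of their group. The hlh-30 RNAi libraries were at 1.67%, 0.106% and 0.0961%, with library 1 again far above the others. The atg-18 RNAi libraries were at 0.165%, 0.101% and 0.125%, with no such excess in library 1. The Y-box gene cey-2 had 46.2, 0.50 and 1.18 RPKM with atg-2 RNAi and 20.8, 1.19 and 0.85 RPKM with luc. The lectin gene clec-87 had 60.5, 0.44 and 0.31 RPKM with atg-2 RNAi and 24.3, 0.46 and 0.79 RPKM with luc. Of the 48 genes 0, 7 and 6 were at 0 with atg-2 RNAi and 0, 3 and 4 with luc. Summed over all 49 genes of the germline list, the level was 33.5%, 29% and 30.9% of TU3401 with atg-2 RNAi and 29.6%, 27.6% and 29.9% with luc. Most of these sums was perm-2 and perm-4, eggshell genes that were above their TU3401 level in all 6 libraries, and the other 47 genes summed to 2.75%, 0.497% and 0.524% of TU3401 with atg-2 RNAi and 1.31%, 0.499% and 0.518% with luc. Over the 37 germline genes tested the median log2 difference was 0.31, and -0.01 without the libraries numbered 1. RNA of whole worms cannot tell fewer cells of a type from less RNA per cell.

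The targeted gene was not lower in the worms fed its RNAi. atg-2 had 43.1, 39.4 and 38 RPKM with atg-2 RNAi, against 34.7, 26.6 and 28.9 RPKM with luc. All 3 atg-2 RNAi libraries lay above all 3 luc libraries, with a log2 difference of 0.41 ± 0.11 (SE, n = 3 each; limma adjusted p = 0.434). Fits with the replicate number as a block, described below, gave an adjusted p of 0.0923 over 12 libraries and of 0.00302 with limma-voom. With atg-18 RNAi it had 30.7, 20.5 and 19.2 RPKM, and with hlh-30 RNAi 26.2, 23.5 and 18.3 RPKM, so the atg-2 RNAi libraries were the 3 highest of the 12 glp-1 libraries. The genes beside atg-2 on the chromosome, M03A8.3 and dhs-28, differed by 0.15 and 0.08 on the log2 scale (adjusted p = 0.872 and 0.748). M03A8.3 overlapped luc. dhs-28 also lay above luc without overlap, at 272.0, 272.5 and 269.7 RPKM with atg-2 RNAi and 252.0, 253.4 and 263.7 RPKM with luc. The hlh-30 RNAi libraries likewise had more hlh-30 RNA, 125.7, 292.5 and 328.2 RPKM, against 54.6, 44.5 and 50.9 RPKM with luc. The atg-18 RNAi libraries did not all do so for atg-18. They had 49.1, 81.3 and 115.8 RPKM of it, which lay on both sides of its luc values. With atg-2 RNAi, hlh-30 was at 53.1, 45.7 and 55.4 RPKM and atg-18 at 74.4, 63.7 and 73.6 RPKM, against 78.5, 68.8 and 70.1 RPKM of atg-18 with luc. Both sets overlapped their luc values (log2 differences 0.04 and -0.04). How much atg-2 RNA neurons held was not measured, and reads of the RNAi trigger itself were not told apart from reads of the gene.

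**Figure D1:**
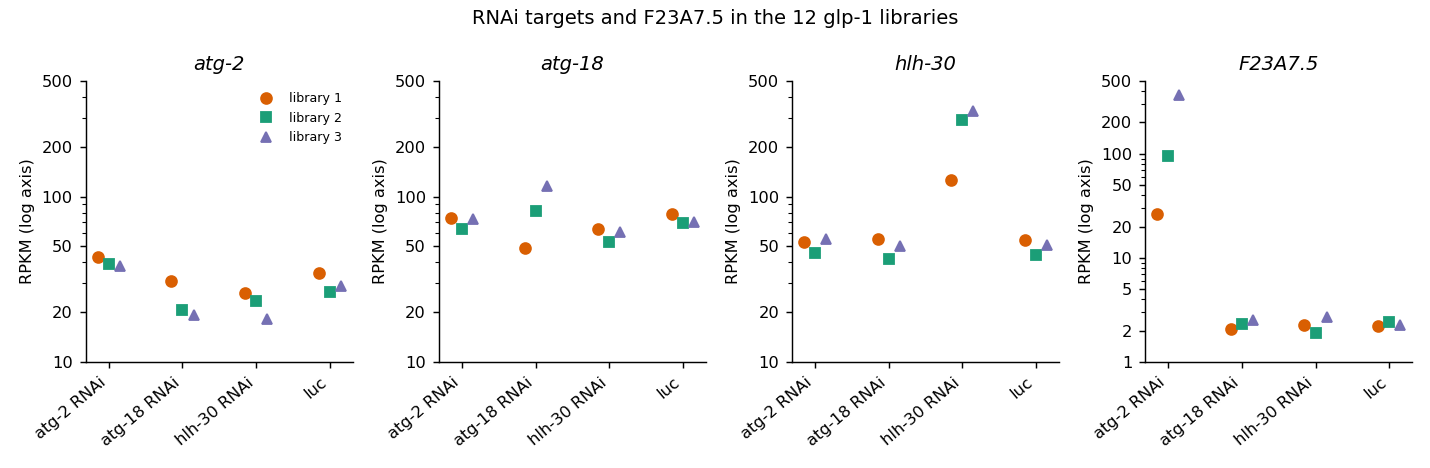
RPKM on a log axis of atg-2, atg-18, hlh-30 and F23A7.5 in the 12 glp-1 libraries, 3 per group, with 1 point per library and its shape giving the library number. atg-2 was highest with atg-2 RNAi (38 to 43.1 RPKM), and F23A7.5 was at 26.6 to 370.4 RPKM there and near 2 RPKM elsewhere.

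Across the 12548 genes tested, limma called 0 genes at an adjusted p under 0.05 (0%), and the smallest adjusted p was 0.434. At an unadjusted p under 0.05 there were 961 genes (7.66%), 312 higher with atg-2 RNAi (2.49%) and 649 lower (5.17%). The groups did not overlap for 1687 genes (13.4%), with atg-2 RNAi above luc for 648 (5.16%) and below it for 1039 (8.28%). The median difference over all genes was -0.01, and 36 genes with a mean of at least 5 RPKM differed by at least 1 on the log2 scale, 10 higher and 26 lower. The authors' deposited table gives a false discovery rate under 0.05 to 2 of 42048 genes (0.00476%), cpt-4 with 0.0218 and H02F09.3 with 0.0441, and one under 0.1 to 12 genes (0.0285%).

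Libraries of the same number deviated from their group means together, so a fit with the replicate number as a block was also made. With the 6 libraries it called 0 genes (0%), with a smallest adjusted p of 0.0686 and 36 genes at an adjusted p under 0.1 (0.287%). A fit of the 6 libraries without a trend of variance on level called 1 gene (0.00797%), the piRNA gene 21ur-4139, at 2.00, 2.11 and 2.06 RPKM with atg-2 RNAi, which is 1 recovered read in each library, and listed at 0 in all 3 luc libraries. A block fit over all 12 glp-1 libraries, added after the data were seen, called 206 of 12460 genes (1.65%). Of these, 46 rose with atg-2 RNAi (0.369%) and 160 fell (1.28%), by a median of 0.42 in either direction on the log2 scale. In this fit, 160 of the 206 genes also had groups that did not overlap. For 148 of the 160 genes that fell (92.5%), luc library 1 was the highest of the 6 libraries, as it was for 694 of the 1039 genes (66.8%) with all luc libraries above all atg-2 RNAi libraries. Without the libraries numbered 1, the same fit called 0 genes, with a smallest adjusted p of 0.0631. The genes kept their sign without those libraries, 46 of 46 for the higher ones and 159 of 159 measured for the lower ones. For genes whose groups did not overlap this was fixed in advance. The others had been picked by a fit that used the same remaining libraries, so the signs are no separate support. The median difference of the lower ones was -0.39 with all 6 libraries and -0.33 without the 2 numbered 1. Against the same luc libraries, the median of these lower genes was -0.35 with atg-18 RNAi and -0.14 with hlh-30 RNAi. The higher genes had a median of 0.49 with atg-2 RNAi and 0.36 with each of the other RNAi groups. All these values share the luc libraries, and the genes were picked by their difference from those libraries. Shifts in the same direction with the other RNAi groups therefore cannot show whether the changes were particular to atg-2 RNAi. Weighting recovered reads by their precision (limma-voom), also added later, called 0 genes without the block and 513 with it (4.09%). These were 168 higher (1.34%) and 345 lower (2.75%) genes, among them 188 of the 206 (91.3% of those and 36.6% of the 513), and 21 of the 37 germline genes tested were among the higher ones. Where a gene is written below as called with the block, the block fit over 12 libraries is meant.

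**Figure D2:**
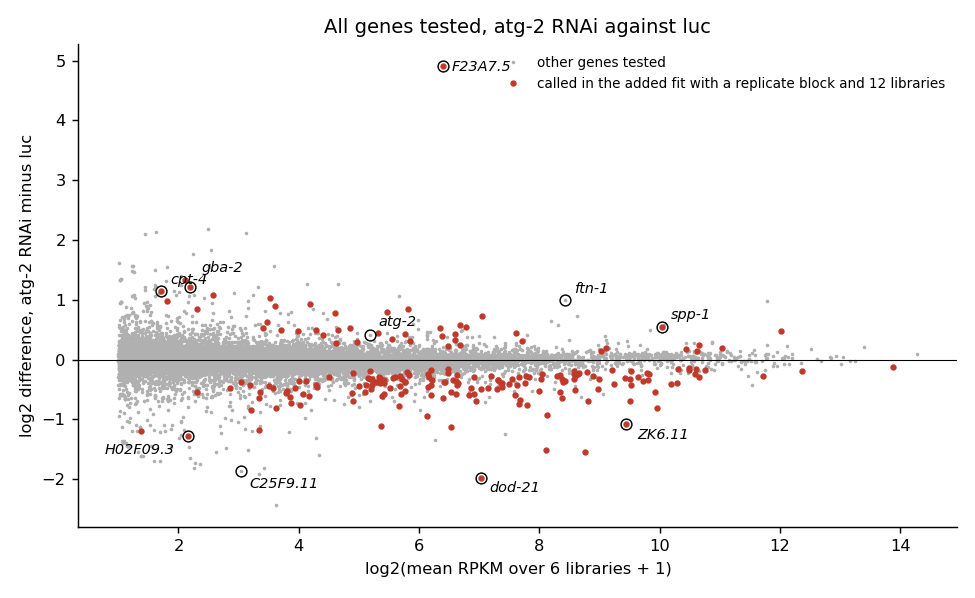
Log2 difference, atg-2 RNAi minus luc, against log2 of the mean RPKM plus 1 for the 12548 genes tested. Red points are genes called in the added block fit over 12 libraries, and named genes are circled. Most red points lie below 0, and F23A7.5 stands alone at 4.91.

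F23A7.5 gave the largest difference of the 12548 genes. It had 26.6, 95.5 and 370.4 RPKM in the 3 atg-2 RNAi libraries, against 2.22, 2.44 and 2.26 RPKM with luc. These values rest on 1206, 4095 and 16282 recovered reads with atg-2 RNAi and on 85, 87 and 100 with luc. The log2 difference was 4.91 ± 0.84 (SE, n = 3 each; limma adjusted p = 0.434, and 0.0128 with the block). The 3 atg-2 RNAi libraries lay far above the luc libraries and also far from each other. F23A7.5 had 2.08, 2.33 and 2.51 RPKM with atg-18 RNAi, 2.26, 1.88 and 2.68 RPKM with hlh-30 RNAi and 0.47, 0.47 and 0.31 RPKM in TU3401. In the direct contrast over the 12 glp-1 libraries it was 4.93 higher with atg-2 RNAi than with hlh-30 RNAi (adjusted p = 0.00688). The same contrast against atg-18 RNAi missed the threshold (adjusted p = 0.0572). Its neighbours on the chromosome showed no such values. F23A7.3 had 4.27, 5.10 and 3.51 RPKM with atg-2 RNAi and 5.40, 4.46 and 4.26 RPKM with luc, and F23A7.1 had 11.7, 4.69 and 9.60 RPKM with atg-2 RNAi and 8.12, 5.36 and 6.81 RPKM with luc. On the other side W10G6.1 stayed at or under 0.21 RPKM in all 6 libraries. RefSeq lists F23A7.5 as protein coding. Where its reads lie within the gene was not tested.

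Besides F23A7.5, the genes of smallest unadjusted p on the higher side included enzyme genes, a transcription factor gene and genes of unknown role. Carnitine palmitoyltransferases move fatty acids towards mitochondrial oxidation, and a pair of genes of this family, cpt-4 and cpt-5, stood among the first 12. The family did not move as a whole, since cpt-3 lay below luc without overlap. cpt-4 had 4.20, 2.96 and 3.36 RPKM with atg-2 RNAi, against 0.86, 1.12 and 1.14 RPKM with luc (log2 difference 1.14 ± 0.16, adjusted p = 0.434, and 0.0248 with the block). The 2 groups were far apart, and atg-18 RNAi with a mean of 1.93 RPKM and hlh-30 RNAi with 2.60 RPKM lay between them. cpt-5 had 28.0, 28.7 and 27.8 RPKM with atg-2 RNAi, against 17.5, 22.4 and 19.8 RPKM with luc (log2 difference 0.49 ± 0.09, block adjusted p = 0.0141). gba-2, a glucosylceramidase gene whose family breaks down glycolipid in lysosomes, had 5.57, 5.62 and 4.93 RPKM with atg-2 RNAi, against 1.15, 1.75 and 2.46 RPKM with luc (1.22 ± 0.18, block adjusted p = 0.0325). Its groups were apart too, and its means were 4.28 RPKM with atg-18 RNAi and 3.97 RPKM with hlh-30 RNAi. A gene of the same family, gba-1, went the other way and lay below luc without overlap. hlh-13, a basic helix-loop-helix factor gene, had 18, 15.5 and 19.4 RPKM with atg-2 RNAi, against 8.47, 9.13 and 11.7 RPKM with luc (0.80 ± 0.13, block adjusted p = 0.0721).

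Of the other genes in this first 12, R08F11.4 had 18.6, 24.1 and 26.2 RPKM with atg-2 RNAi, against 10.6, 13.3 and 10.7 RPKM with luc (0.93 ± 0.14, block adjusted p = 0.0111). Its mean was 27.8 RPKM with atg-18 RNAi, above that with atg-2 RNAi. T16G1.7 had 6.78, 3.92 and 4.88 RPKM with atg-2 RNAi, against 1.06, 1.22 and 2.13 RPKM with luc (1.33 ± 0.23, block adjusted p = 0.0248). The remaining genes, C10C5.4, Y44A6D.2 (tpan-1), the noncoding Y14H12A.4, C08E8.3 and fipr-3, differed by 0.31 to 1.08, and C10C5.4 and Y14H12A.4 were called with the block (adjusted p = 0.0212 and 0.046). Chosen after their values were seen, acly-1, the gene of ATP-citrate lyase, which makes the acetyl-CoA for fat synthesis, had 2.79, 4.56 and 3.67 RPKM with atg-2 RNAi, against 0.90, 1.62 and 1.56 RPKM with luc (0.98 ± 0.20, block adjusted p = 0.0212). The oxidoreductase gene dhs-25 had 95.5, 127.0 and 142.1 RPKM with atg-2 RNAi and 66.0, 80.4 and 96.3 RPKM with luc, with a slight overlap (0.58 ± 0.18, block adjusted p = 0.0111).

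**Figure D3:**
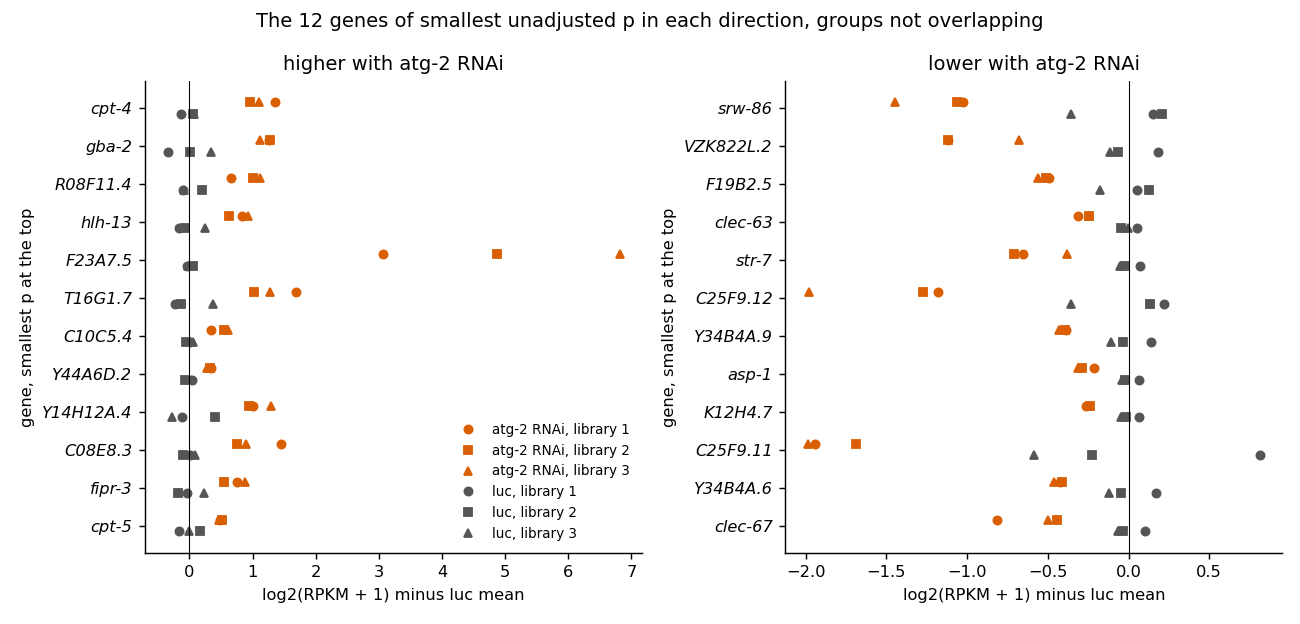
Log2(RPKM + 1) minus the luc mean in each of the 6 libraries, for the 12 genes of smallest unadjusted p in each direction among those with a mean of at least 2 RPKM and groups that do not overlap. Orange points are atg-2 RNAi and grey points luc. The atg-2 RNAi values of F23A7.5 spread over more than 3 units, and luc library 1 is the far right point of C25F9.11.

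On the lower side the genes of smallest p were chemoreceptors, lectins, short secreted-peptide genes and unnamed genes. The chemoreceptor family gene srw-86 had 5.77, 5.61 and 4.07 RPKM with atg-2 RNAi, against 14.3, 14.9 and 9.79 RPKM with luc (log2 difference -1.18 ± 0.18, n = 3 each, limma adjusted p = 0.434, and 0.0116 with the block). Another, str-7, had 38.4, 36.8 and 46.5 RPKM with atg-2 RNAi, against 64.2, 60.1 and 58.7 RPKM with luc (-0.58 ± 0.10, block adjusted p = 0.0194). Neither pair of groups overlapped, and luc library 1 was not the highest for srw-86. nspg-13 and nspg-14, of a nematode-specific peptide family, had 506.2 to 522.5 and 614.3 to 635.9 RPKM with atg-2 RNAi, against 634.7 to 753.6 and 776.5 to 952.5 RPKM with luc (-0.41 ± 0.07 and -0.43 ± 0.08, block adjusted p = 0.0192 and 0.0204). The family nspg had 7 of 11 tested members below luc in all libraries (63.6%, against 8.28% of all genes), a family picked after its values were seen. C25F9.11 and C25F9.12 had 2.03 to 2.73 and 1.52 to 3.38 RPKM with atg-2 RNAi, against 6.99 to 20.1 and 6.77 to 10.6 RPKM with luc, and neither was called with the block (adjusted p = 0.0638 and 0.123). F19B2.5 had 158.3, 156.4 and 151.1 RPKM with atg-2 RNAi, against 231.1, 244.1 and 196.8 RPKM with luc (-0.52 ± 0.08, block adjusted p = 0.126). Further genes of this set were VZK822L.2 (-0.97 ± 0.15) and K12H4.7 (-0.25 ± 0.05), the second of which was called with the block (adjusted p = 0.0212).

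Genes of the intestine's response to pathogens were among the lower ones. Many carry the names dod or dct, for genes downstream of the insulin-signalling factor DAF-16, and the class II list holds those that DAF-16 is known to keep low. Of its 16 members tested, 9 lay below luc without overlap (56.2%, against 8.28% of all genes) and 2 above (12.5%, against 5.16%). The list median was -0.21, against -0.01 over all genes, and -0.13 without the libraries numbered 1. Per library, it lay -0.29, -0.16 and -0.16 from the luc mean with atg-2 RNAi. With atg-18 RNAi it lay -0.23, -0.14 and -0.20 from that mean, and with hlh-30 RNAi -0.02 to 0.04. All these values are set against the same luc libraries, so they cannot show whether the shift was particular to atg-2 RNAi. With the block 7 fell and 2 rose (1.28% and 0.369% of all genes did). The list was chosen with earlier results of these data known, so its count is not independent evidence of direction. Some of its members are also immune effectors, and dod-24 and others are counted in both lists.

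dod-21 had 53.6, 44.8 and 38.7 RPKM with atg-2 RNAi, against 386.5, 137.4 and 112.6 RPKM with luc (log2 difference -1.98 ± 0.44, adjusted p = 0.434, and 0.0194 with the block). Every atg-2 RNAi library was under every luc library, and luc library 1 was far above the other luc libraries. Without the libraries numbered 1 the difference was -1.55. The dod-21 mean with atg-18 RNAi was also low, 56.5 RPKM. dct-17 had 49.6, 43.9 and 44.5 RPKM with atg-2 RNAi, against 126.5, 76.6 and 72.6 RPKM with luc (-0.94 ± 0.20, block adjusted p = 0.0128). dod-17 had 19.8, 23.4 and 21.3 RPKM with atg-2 RNAi, against 44.7, 33.7 and 30 RPKM with luc (-0.70 ± 0.15, block adjusted p = 0.0229). Among genes picked after their values were seen, dod-19 had 752.9, 687.2 and 666.0 RPKM with atg-2 RNAi, against 1768, 1084 and 966.0 RPKM with luc (-0.81 ± 0.21, block adjusted p = 0.0238). dod-24 had 281.0, 243.7 and 235.6 RPKM with atg-2 RNAi, against 539.8, 355.9 and 322.3 RPKM with luc (-0.64 ± 0.19, block adjusted p = 0.0204). In each of these genes luc library 1 was the highest of the 6. On the other side, F08G5.6 (irg-4), an infection response gene, was called higher with the block, with 120.1, 154.7 and 210.4 RPKM under atg-2 RNAi and 67.6, 86.4 and 143.5 RPKM under luc (0.73 ± 0.31, block adjusted p = 0.0206). dod-23 was also called higher, by 0.24 ± 0.10 (block adjusted p = 0.0341).

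The wider list of immune effectors, which holds lysozymes, C-type lectins, saposin-like proteins and infection response genes, had 22 of 68 tested members below luc without overlap (32.4%, against 8.28% of all genes) and 7 above (10.3%, against 5.16%). Its median was -0.11, and with the block 12 fell and 4 rose (1.28% and 0.369% of all genes did). Per library, the median lay -0.05, -0.20 and -0.08 from the luc mean with atg-2 RNAi and 0.04, -0.15 and -0.08 with atg-18 RNAi. The luc libraries themselves lay at 0.10, -0.08 and -0.02. ZK6.11 (irg-8), which is not in the list and was picked after its values were seen, had 419.2, 494.9 and 395.6 RPKM with atg-2 RNAi, against 1295, 860.3 and 700.9 RPKM with luc (-1.08 ± 0.22, block adjusted p = 0.0196). F40F4.6 (irg-7) had 244.9, 290.2 and 248.7 RPKM with atg-2 RNAi, against 431.0, 373.6 and 346.3 RPKM with luc (-0.55 ± 0.10, block adjusted p = 0.0152). Of the C-type lectins, whose family binds sugars, clec-63 had 2961, 3095 and 3094 RPKM with atg-2 RNAi, against 3803, 3559 and 3667 RPKM with luc (-0.27 ± 0.04, block adjusted p = 0.0364). clec-67 had 129.8, 168.2 and 162.0 RPKM with atg-2 RNAi, against 246.5, 223.3 and 218.8 RPKM with luc (-0.59 ± 0.11, block adjusted p = 0.0229). clec-41 and clec-85 differed by -0.69 ± 0.16 and -0.54 ± 0.11 (block adjusted p = 0.023 and 0.0116).

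Immune genes on the other side were fewer and included abundant antibacterial proteins. spp-1, a saposin-like pore-forming protein gene, had 1370, 1177 and 1178 RPKM with atg-2 RNAi, against 730.0, 856.2 and 960.7 RPKM with luc (0.55 ± 0.11, adjusted p = 0.434, and 0.042 with the block). Its relative spp-17 had 4985, 4704 and 4755 RPKM with atg-2 RNAi, against 2834, 3711 and 3911 RPKM with luc (0.48 ± 0.12, block adjusted p = 0.0403). In both, luc library 1 was the lowest of the 6. clec-52 had 71.1, 64.4 and 75.7 RPKM with atg-2 RNAi, against 28.0, 38.2 and 53.7 RPKM with luc (0.85 ± 0.22, block adjusted p = 0.0232). The ferritin gene ftn-1, which stores iron and is counted in the DAF-16 class I and intestine lists, had 502.1, 391.4 and 465.5 RPKM with atg-2 RNAi, against 171.1, 214.9 and 309.7 RPKM with luc (1.00 ± 0.21, block adjusted p = 0.057). Another ferritin gene of the intestine list, ftn-2, went the other way and lay below luc without overlap.

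**Figure D4:**
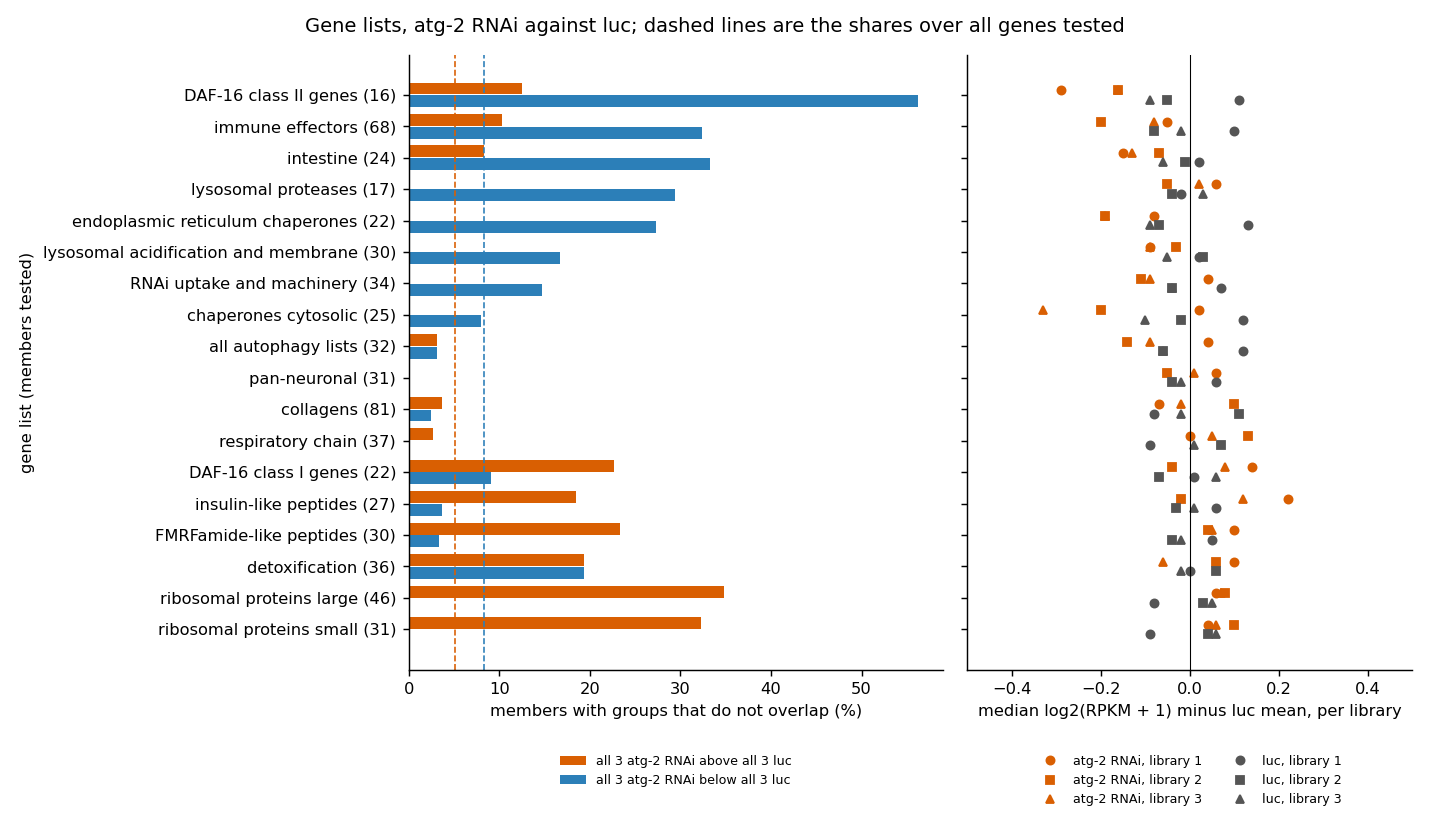
Left, the share of tested members of each gene list whose 3 atg-2 RNAi libraries all lay above or all below the 3 luc libraries, with dashed lines for all genes (5.16% and 8.28%). Right, the median of each list's members in each library as log2(RPKM + 1) minus the luc mean. The DAF-16 class II list has the longest bar, 56.2% below luc, and its luc library 1 sits to the right of the other luc libraries.

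Autophagy genes showed small differences. The autophagy lists together had 32 tested members, of which 1 lay above luc without overlap (3.12%, against 5.16% of all genes), atg-2 itself, and 1 below (3.12%, against 8.28%), atg-4.1, a protease that processes LC3-like proteins. With the block 0 were called, and the median was -0.05, with 27 of 32 differences under 0. Without luc library 1 that median was 0.00. atg-4.1 had 28.3, 23.8 and 26.9 RPKM with atg-2 RNAi, against 30, 29.1 and 30.5 RPKM with luc (-0.18 ± 0.08, adjusted p = 0.657). lgg-1, the Atg8-family protein gene, had 1876, 1648 and 1758 RPKM with atg-2 RNAi, against 1959, 1765 and 1737 RPKM with luc. sqst-1, the p62-like cargo receptor gene, had 94.9, 79.7 and 91.7 RPKM with atg-2 RNAi, against 119.5, 91.7 and 98.9 RPKM with luc (-0.21 ± 0.11). Both overlapped. Of the other lipid-transfer genes, atg-9, the scramblase of the autophagosome, differed by -0.06 ± 0.06 and epg-6, a relative of atg-18, by -0.07 ± 0.12. bec-1, the Beclin gene, and unc-51, the initiating kinase gene, differed by -0.21 ± 0.18 and -0.02 ± 0.09.

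Of 17 lysosomal proteases, 5 lay below luc without overlap (29.4%, against 8.28% of all genes) and 0 above (against 5.16%). asp-1, an intestinal aspartyl protease gene, had 2676, 2545 and 2501 RPKM with atg-2 RNAi, against 3248, 3058 and 3021 RPKM with luc (-0.27 ± 0.05, adjusted p = 0.434, and 0.084 with the block). asp-2 had 415.7, 405.1 and 408.8 RPKM with atg-2 RNAi, against 494.7, 468.1 and 462.6 RPKM with luc (-0.21 ± 0.05, block adjusted p = 0.0382). The median of the list was 0.01, since 9 of its 17 members had differences over 0. Among 30 acidification and membrane genes 5 lay below luc (16.7%, against 8.28%) and 0 above, among the 5 lmp-2, a LAMP-like membrane protein gene, at -0.41 ± 0.12. Lipase and fat-mobilising genes had 3 of 23 above (13%, against 5.16%) and 2 below (8.7%, near the 8.28% of all genes), and lipl-5, a lysosomal lipase gene, was called higher with the block (0.19 ± 0.06, block adjusted p = 0.0496). The intestine list had 8 of 24 below (33.3%, against 8.28%) and 2 above (8.33%, against 5.16%), with the gut esterase gene ges-1 called lower with the block (-0.26 ± 0.07, block adjusted p = 0.0377).

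Chaperones of the endoplasmic reticulum fold secreted and membrane proteins. Of 22 members, 21 had differences under 0, 6 lay below luc without overlap (27.3%, against 8.28% of all genes), the median was -0.15, and with the block 6 fell (1.28% of all genes did). hsp-4, the BiP gene that marks the unfolded protein response, had 237.9, 190.6 and 185.8 RPKM with atg-2 RNAi, against 395.7, 252.4 and 252.8 RPKM with luc (-0.53 ± 0.19, adjusted p = 0.572, and 0.0132 with the block). xbp-1, the factor of that response, had 399.3, 342.7 and 320.8 RPKM with atg-2 RNAi, against 504.4, 393.8 and 381.6 RPKM with luc (-0.26 ± 0.13, block adjusted p = 0.0325), and its groups overlapped. crt-1 (calreticulin), enpl-1, hsp-3 and pdi-6 made up the other called members, at -0.20 to -0.33. The groups of crt-1 and enpl-1 overlapped as well, so only hsp-4, hsp-3 and pdi-6 were both called and apart. hsp-4, xbp-1, hsp-3, crt-1 and enpl-1 were picked after their values were seen. The list median was -0.07 without luc library 1 and -0.13 without both libraries numbered 1. Per library, it lay -0.08, -0.19 and -0.19 from the luc mean with atg-2 RNAi. It lay as low with atg-18 RNAi, at -0.12, -0.21 and -0.21, and at 0.03, -0.19 and -0.14 with hlh-30 RNAi. In the cytosolic chaperone list 2 of 25 tested members lay below luc without overlap (8%, near the 8.28% of all genes) and 0 above. These were the small heat shock protein genes hsp-16.2 and hsp-17, at -0.55 ± 0.14 and -0.50 ± 0.15 (block adjusted p = 0.0288 and 0.0212). Their means were 26.7 and 128.0 RPKM with atg-2 RNAi, 26.9 and 120.1 RPKM with atg-18 RNAi and 39.7 and 183.4 RPKM with luc. With the block 3 members of this list fell and 0 rose.

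Among 31 pan-neuronal genes tested 0 were called with the block and 0 had groups apart in either direction, and the list median was 0.02. FMRFamide-like neuropeptide genes had 7 of 30 above luc (23.3%, against 5.16% of all genes) and 1 below (3.33%, against 8.28%), with a median of 0.05. flp-16 had 55.9, 53.0 and 55.4 RPKM with atg-2 RNAi, against 49.1, 44.3 and 44.7 RPKM with luc (0.25 ± 0.06, block adjusted p = 0.266). Insulin-like peptide genes had 5 of 27 above (18.5%, against 5.16%) and 1 below (3.7%, against 8.28%), and ins-18, picked after its values were seen, was called higher with the block. It had 14.1, 12.9 and 15.9 RPKM with atg-2 RNAi, against 11.3, 8.15 and 10.1 RPKM with luc (0.50 ± 0.13, block adjusted p = 0.0219). Of 34 genes of RNAi uptake and machinery 5 lay below luc (14.7%, against 8.28%) and 0 above. sid-2, which takes up double-stranded RNA from the gut lumen, had 39.0, 34.2 and 34.3 RPKM with atg-2 RNAi, against 57.1, 44.4 and 41.5 RPKM with luc (-0.39 ± 0.13, block adjusted p = 0.0468). sid-1 had 151.4, 138.2 and 144.8 RPKM with atg-2 RNAi and 177.6, 153.9 and 150.0 RPKM with luc, and these overlapped.

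Ribosomal protein genes showed small shifts in many members. Of 46 genes of the large subunit 16 lay above luc without overlap (34.8%, against 5.16% of all genes), and of 31 of the small subunit 10 did (32.3%), with 0 below in either list and medians of 0.07 in both. rps-14 had 1495, 1535 and 1500 RPKM with atg-2 RNAi, against 1297, 1361 and 1434 RPKM with luc (0.15 ± 0.05, adjusted p = 0.538). With the block 0 were called, and scaling the libraries on neuronal and muscle genes gave medians of 0.00 in both lists. That scaling shifts the median of all genes to -0.07, and the ribosomal medians moved with it. Luc library 1 was the lowest of the 6 by list median, at -0.08 and -0.09 from the luc mean. The medians were 0.03 in both lists without the libraries numbered 1. Of 81 collagen genes 3 lay above luc (3.7%, against 5.16% of all genes) and 2 below (2.47%, against 8.28%). Of 13 hypodermis and 16 hedgehog-related genes 0 lay above and 0 below. With the block 1 hypodermis gene, lin-26, and 1 collagen gene, col-183, rose (0.369% of all genes did), though the groups of both overlapped. They differed by 0.41 and 0.55 (block adjusted p = 0.0219 and 0.0444). Respiratory chain genes had 1 of 37 above (2.7%) and 0 below, and 1 of them, asg-2, rose with the block (0.14, block adjusted p = 0.038). Their median was 0.07, the same as in the ribosomal lists, with 35 of 37 differences over 0.

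The direct contrasts, which do not use the luc libraries as their reference, gave few calls against atg-18 RNAi and more against hlh-30 RNAi. Against atg-18 RNAi, 2 of 12460 genes were called (0.0161%), and both stood out in the atg-18 RNAi worms. hmp-2, the beta-catenin gene of cell junctions, had 13.6, 11.8 and 12.9 RPKM with atg-2 RNAi, a mean of 28.7 RPKM with atg-18 RNAi and a mean of 12.7 RPKM with luc (-1.11, adjusted p = 0.0171 for atg-2 against atg-18 RNAi). F41E6.12, which lies next to atg-18, had 20.3, 19.6 and 23.4 RPKM with atg-2 RNAi, against 10, 9.73 and 7.94 RPKM with atg-18 RNAi and 17.5, 21.4 and 23 RPKM with luc (1.11, adjusted p = 0.0171). With the block 1 of 12460 was called (0.00803%), hmp-2. Leaving out 1 library gave 0 to 2 calls, with 0 without atg-2 RNAi library 2 or any of the 3 atg-18 RNAi libraries and 1 without atg-2 RNAi library 3, and a fit of these 6 libraries alone gave 0. A p that misses the threshold does not show that the 2 RNAi groups are alike.

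Against hlh-30 RNAi, 126 of 12460 genes were called (1.01%). Of these, 54 were higher with atg-2 RNAi (0.433%) and 72 lower (0.578%). Leaving out 1 library gave 30 to 86 calls, a move of more than 1.5 times for atg-2 RNAi libraries 1 (42 calls), 2 (59 calls) and 3 (30 calls) and, in the other group, for libraries 1 (68 calls) and 3 (34 calls). With the block the count was 757 (6.08%), 372 higher (2.99%) and 385 lower (3.09%). B0024.4, F35E12.5, tts-1, dct-8, cpr-4, cpr-1, lipl-1 and grd-14 were picked after their values were seen. Of the DAF-16 class II list 4 of 16 fell and 0 rose, and of the immune effectors 6 of 68 fell and 3 rose (0.578% and 0.433% of all genes did). dod-21 was at 53.6, 44.8 and 38.7 RPKM with atg-2 RNAi and averaged 258.5 RPKM with hlh-30 RNAi (-2.48, adjusted p = 0.0125). B0024.4 had 105.8, 105.9 and 79.0 RPKM with atg-2 RNAi, against 399.5, 339.2 and 428.3 RPKM with hlh-30 RNAi (-2.0, adjusted p = 0.0168) and 380.8, 211.0 and 150.2 RPKM with luc. F35E12.5 (irg-5) had 260.6, 294.7 and 241.2 RPKM with atg-2 RNAi, against 522.5, 539.8 and 491.6 RPKM with hlh-30 RNAi (-0.97, adjusted p = 0.00335) and 413.4, 311.2 and 311.1 RPKM with luc. clec-41, ZK6.11, dct-17, dod-24 and dod-17 also fell, by 0.85, 0.91, 0.92, 0.90 and 0.67 on the log2 scale (adjusted p = 0.0192, 0.0387, 0.0489, 0.0446 and 0.0377). In these genes the hlh-30 RNAi means lay on the luc side of the atg-2 RNAi values. Among genes near luc with atg-2 RNAi and higher with hlh-30 RNAi, the hedgehog-related gene grd-14 had 58.7, 64.7 and 58.3 RPKM with atg-2 RNAi, against 102.1, 101.5 and 113.1 RPKM with hlh-30 RNAi (-0.79, adjusted p = 0.00139) and 60.1, 60.0 and 50.8 RPKM with luc.

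Of the genes that were higher with atg-2 RNAi than with hlh-30 RNAi, tts-1, dct-8, cpr-4 and cpr-1 had atg-2 RNAi values that overlapped luc, and lipl-1 had values above luc in all 3 libraries. The long noncoding RNA tts-1, which is abundant in long-lived worms, had 3081, 1969 and 2467 RPKM with atg-2 RNAi, against 511.9, 280.3 and 417.2 RPKM with hlh-30 RNAi (2.65, adjusted p = 0.00119) and 2864, 2176 and 2270 RPKM with luc. dct-8 had 1122, 438.3 and 773.3 RPKM with atg-2 RNAi, against 87.7, 37.8 and 64.8 RPKM with hlh-30 RNAi (3.57, adjusted p = 0.00505) and 780.7, 435.5 and 697.5 RPKM with luc. The cathepsin B-like protease genes cpr-4 and cpr-1 were 1.28 and 1.49 higher (adjusted p = 0.00103 and 0.00245), and the lysosomal lipase gene lipl-1 1.13 higher (adjusted p = 0.00119). lipl-1 had 31.7, 30.2 and 33.8 RPKM with atg-2 RNAi, 11.7, 16.0 and 14.5 RPKM with hlh-30 RNAi and 24.1, 26.3 and 29.1 RPKM with luc. Of the autophagy lists 1 of 31 members was called, lgg-1, 0.42 higher with atg-2 RNAi (adjusted p = 0.0481). Of all genes 0.433% were called higher in this contrast. Against luc none of tts-1, dct-8, cpr-4, cpr-1 and lipl-1 passed the test with atg-2 RNAi (log2 differences 0.03, 0.23, 0.21, 0.23 and 0.26, adjusted p 0.526 to 0.987), nor with the block (adjusted p 0.171 to 0.929). Their hlh-30 RNAi values lay under every atg-2 RNAi and every luc library.

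**Figure D5:**
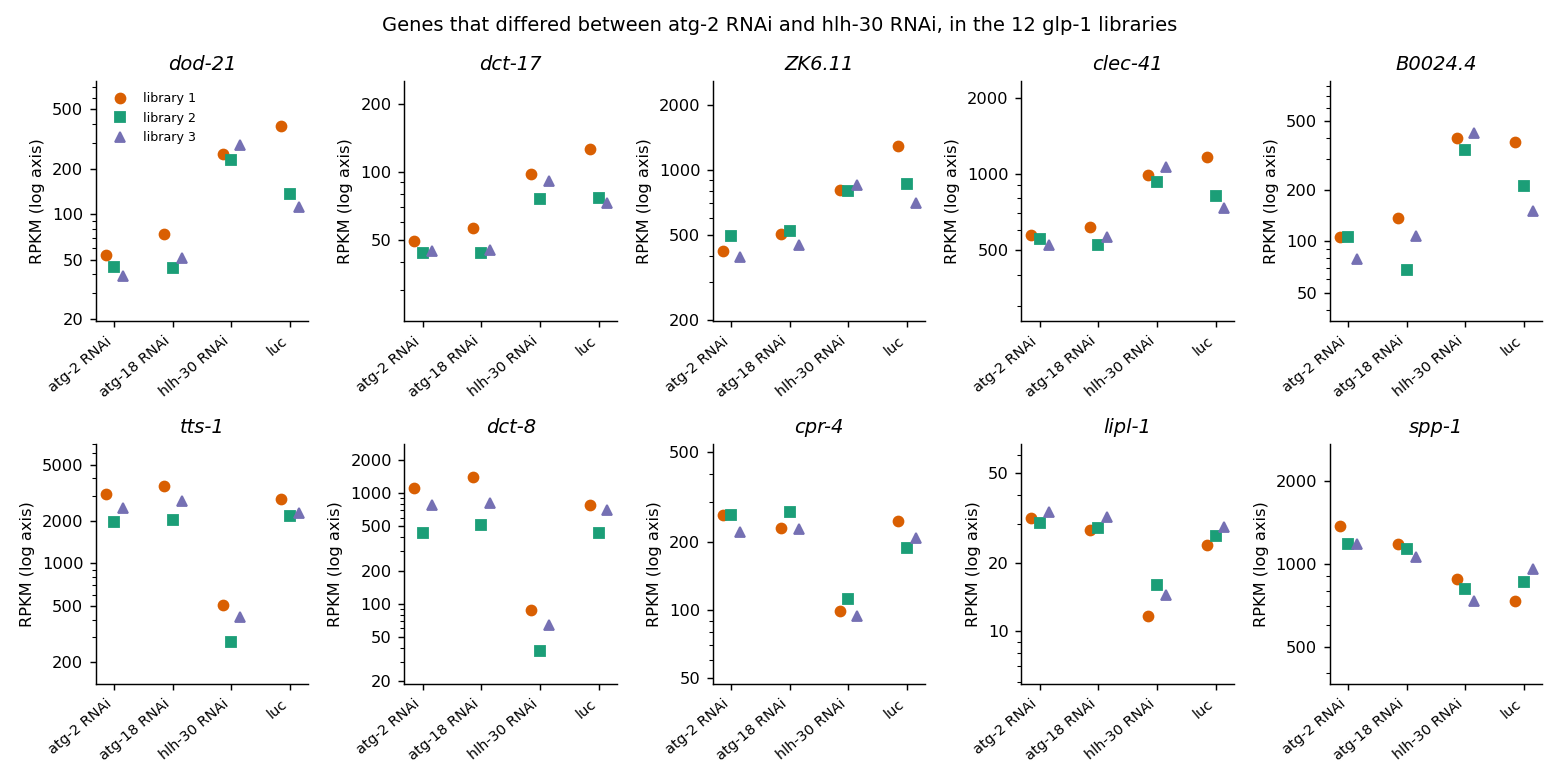
RPKM on a log axis of 10 genes called in the direct contrast of atg-2 RNAi with hlh-30 RNAi, in the 12 glp-1 libraries, with 1 point per library. In the top row atg-2 RNAi and atg-18 RNAi lie below hlh-30 RNAi and luc, as for dod-21 at 38.7 to 53.6 RPKM with atg-2 RNAi. In the bottom row, apart from spp-1, hlh-30 RNAi alone is low.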

How the data were processed

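RNA of whole day 1 adults was sequenced, and per the submitters' processing notes bcl2fastq, TopHat2 2.1.1 and GRCh38, a human build, were used. Not given in the sources used here: how reads were counted, on which annotation, and with which strand setting, so no coordinates or sequences are printed. The authors deposited RPKM values per gene and library, and for each comparison a log2 fold change, a p-value with its false discovery rate, and a rank score. Whole reads could be recovered from the RPKM steps for 100% of the 22215 detected genes (relative tolerance 1e-11).

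RPKM values were tested as log2(RPKM + 1) with limma 3.58.1 (R 4.3.3), with a variance trend, over genes with a mean of at least 1 RPKM, and p-values were adjusted by the Benjamini-Hochberg method over all genes tested (threshold 0.05). The direct contrasts with atg-18 RNAi and hlh-30 RNAi used 1 fit of the 12 glp-1 libraries. Exact permutation of 3 against 3 libraries cannot go below 0.1 and was not used. The code was tested on simulated data.

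Libraries with the same number in the atg-2 RNAi and luc groups deviated together (r = 0.419, 0.256 and 0.203). For other numbers r was -0.238, -0.111 and -0.082, but these negative values follow by construction, since deviations within a group cancel out. Equal numbers were treated as pairs on the same-number values alone, and block fits are given. This pairing comes from the data, since the labels state none. Across the other pairs of glp-1 groups that the 12-library block joins, r was 0.157 to 0.495, except for luc libraries numbered 3 with hlh-30 RNAi (0.067, under the threshold of 0.1) and with atg-18 RNAi (0.100, at it).

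Members and the 39 gene lists were chosen with earlier results of these data known, and lists were given counts and medians but no test. Genes were named by rule: the targets, the autophagy lists, the 12 genes of smallest p each way with a mean of at least 2 RPKM and groups that do not overlap, 2 per list and the authors' first 10. Chosen after their values were seen were the genes of direct contrasts (hmp-2, F41E6.12, dct-8, tts-1, cpr-4, cpr-1, lipl-1, B0024.4, F35E12.5, grd-14), cey-2, clec-87, clec-41, clec-52, clec-85, dod-19, dod-23, dod-24, ZK6.11, F08G5.6, F40F4.6, spp-17, hsp-3, hsp-4, crt-1, enpl-1, xbp-1, acly-1, ins-18, dhs-25, 21ur-4139, perm-2, perm-4, and the chromosomal neighbours of the targets and of F23A7.5. The genes cpt-3, gba-1, ftn-2, lin-26, col-183 and asg-2 were also named after their values were seen. Neighbours were taken from RefSeq's gene order on WBcel235.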

Additional observations from a re-analysis of the deposited data

How the results depend on the processing

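Without a variance trend 1 gene was called between atg-2 RNAi and luc. The replicate block gave 0 genes with 6 libraries, 206 with all 12 glp-1 libraries and 513 with limma-voom on recovered reads. The block fits over 12 libraries, the voom fits and the fit of protein-coding genes were chosen after the data were seen. The other settings, among them pseudocounts of 0.1 and 5, no filter, a filter at 5 RPKM, rescaling and plain limma-voom, gave 0 genes, with 624 to 1234 genes at an unadjusted p under 0.05 (1727 with the block over 6 libraries). Leaving out 1 library gave 0 to 0, with 598 to 1070 at an unadjusted p under 0.05.

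Between atg-2 RNAi and atg-18 RNAi the 2 calls became 0 with the 6 libraries alone, 1 with the replicate block and 0 to 2 without 1 library. Between atg-2 RNAi and hlh-30 RNAi the 126 calls became 52 with no filter, 757 with the replicate block and 30 to 86 without 1 library. The causes were not tested, apart from fewer libraries or more genes tested by construction. Of 173 named genes, 25 changed sign under at least 1 of 22 alternatives and 85 were called under at least 1. With 3 libraries per group the median standard error was 0.11 on the log2 scale.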

Other observations

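Gene families not described above were counted after their values were seen, so no test goes with them. Of 88 fbxa genes, which encode F-box proteins, 23 lay below luc in all atg-2 RNAi libraries (26.1%) and 2 above (2.27%). The math genes, of the MATH domain family, had 9 of 19 below (47.4%) and 0 above, and the pals genes, a family known from the response to intracellular pathogens, had 5 of 20 below (25%) and 0 above. The oac genes, named as O-acyltransferase homologs, had 7 of 13 below (53.8%) and 0 above. The cyp genes, which encode cytochrome P450 enzymes, went the other way, with 9 of 45 above (20%) and 3 below (6.67%). Over all genes tested 5.16% lay above and 8.28% below, and luc library 1 was the highest of the 6 for 66.8% of the 1039 genes below.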
